A study of Homo sapiens with 4 samples.

Results

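The genes described here are 9 members of the plasminogen activation and clotting initiation system: the activators *PLAU* and *PLAT*, the activator receptor *PLAUR*, the inhibitors *SERPINE2*, *SERPINB2*, *TFPI* and *TFPI2*, the clotting initiator *F3* and the thrombin receptor *THBD*. They were chosen with earlier results of these data known. Their rows were found by symbol among the 33694 genes of the count tables, and each symbol named 1 row. OVCA420, a human ovarian cancer cell line, was profiled by droplet-based single-cell RNA-seq as untreated cells (Ctrl) or after 10 ng/mL TGF-β1 for 1, 3 or 7 days (1-day, 3-day and 7-day), with all cells collected together and TGF-β1 renewed during treatment. There was 1 library for each time point and 4 in all, so no test between time points was possible and no p-value is given. Levels are UMIs (counts of distinct transcript molecules) summed over the cells of a library and given as counts per 1000000 UMIs (CPM). Every interval is a 95% interval for counting error only, which does not cover the difference between cultures. Intervals of levels and ratios treat UMIs as independent and also leave out the spread between cells of a library. They are therefore too narrow for genes that are unevenly spread over cells, also where intervals are said not to overlap.

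Plasminogen, a circulating protease precursor, is cut to active plasmin by urokinase (*PLAU*) or tissue-type plasminogen activator (*PLAT*). Urokinase bound to its receptor (*PLAUR*) does this at the cell surface, and serpins trap the activators in stable complexes. Tissue factor (*F3*) starts clotting by binding factor VII, and the Kunitz-type inhibitor *TFPI* blocks the activity of the complex so formed. TGF-β is widely known as a regulator of this system in epithelial and tumor cells, where pericellular proteolysis accompanies matrix remodelling and invasion.

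Of the 10710 barcodes listed, 3170 were read and 3144 retained, from 569 at 7-day to 937 at 1-day. The retained cells held 25382817 to 32949874 UMIs per library, with median depths of 30270, 32393, 43553 and 43382 UMIs per cell from Ctrl to 7-day in time order. Libraries shared at most 16 barcodes in any pair. All 6 epithelial markers were above 10 CPM in every library, whereas 6 fibroblast markers summed to at most 1.37 CPM and 6 endothelial markers to 5.40 CPM in Ctrl and at most 0.591 CPM in treated libraries. The 5 leukocyte markers summed to 4.93 CPM in Ctrl and 14.1 CPM at 7-day. Of these, *CD68* (1.53 and 6.19 CPM) and *CD79A* (2.80 and 7.88 CPM) were higher at 7-day. *PTPRC*, *CD3E* and *LYZ* were not, at 0.0667, 0.0333 and 0.5 CPM in Ctrl and 0, 0 and 0.0394 CPM at 7-day. The part of these markers in the results was not tested. The share of cells called as G1 phase was 27.2% in Ctrl but 74.8% at 1-day, 49.2% at 3-day and 39.2% at 7-day. With 1 cell line per library, there was no cell type that should lack these genes, so the share of cells that free RNA alone would give was not measured.

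From 3-day, treated cells had at least 2-fold more *PLAU*, *PLAUR*, *SERPINE2*, *F3* and *TFPI2* RNA than Ctrl cells, and *TFPI* was 1.63-fold higher at 3-day and 3.00-fold higher at 7-day, whereas *PLAT* was lower at every treated time point. The genes differed in timing. *SERPINE2* and *F3* were already over 14-fold higher at 1-day, while *PLAU*, *PLAUR* and *TFPI2* were less than 2-fold higher at 1-day and 16.6-fold to 24.8-fold higher at 7-day. *THBD*, which encodes thrombomodulin, had 0 UMIs in all 4 libraries, which allows a level of up to 0.0910 to 0.118 CPM per library (3 counts). The log-scale plot of levels shows the early and late genes side by side.

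**Figure D1:**
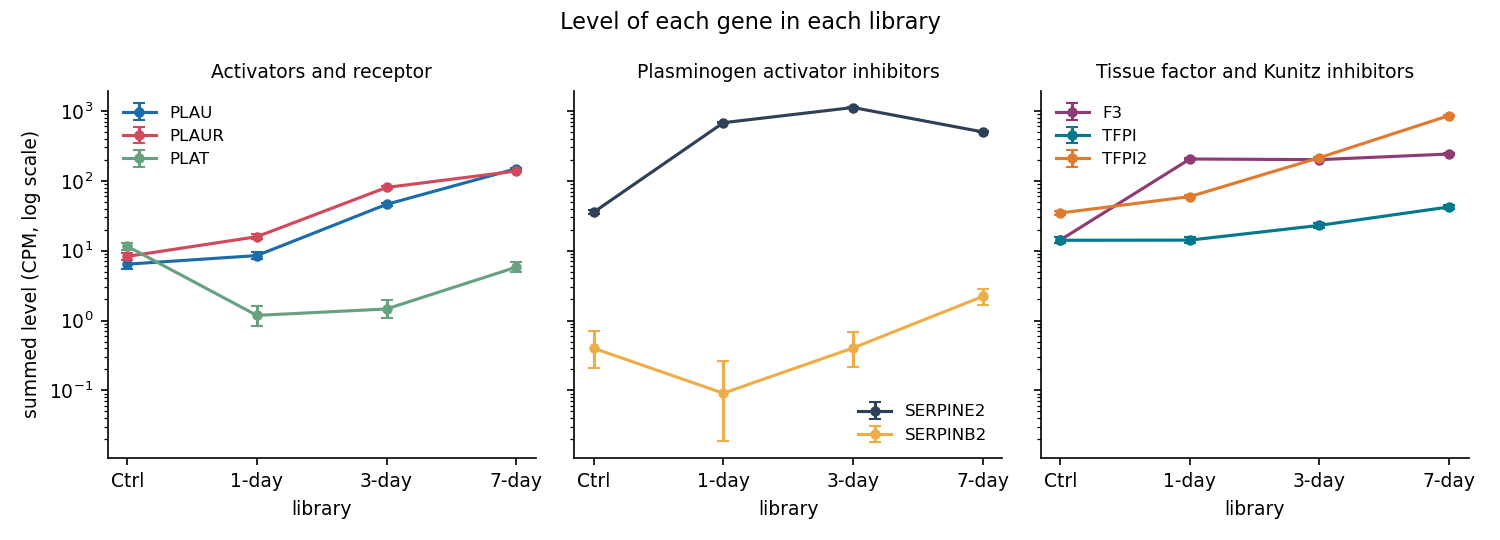
Level of 8 genes in each of the 4 libraries, in CPM of summed UMIs on a log scale, with bars for exact Poisson 95% intervals and lines joining the time points of one gene. Levels are to be read within a gene: *SERPINE2* was highest at 3-day (1117 CPM), *TFPI2* was highest at 7-day (857 CPM), and *PLAT* was lowest at 1-day (1.18 CPM).

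At 1-day, 6 of the 9 members reached 10 CPM in either library, and 2 of these (*SERPINE2* and *F3*) were at least 2-fold higher and 1 (*PLAT*) at least 2-fold lower than in Ctrl. Across all 8123 genes at that level, 9.34% were at least 2-fold higher and 9.31% at least 2-fold lower. At 3-day, 7 members reached 10 CPM, with 5 at least 2-fold higher and 1 lower, against 10.1% and 5.92% of 8207 genes. At 7-day, 6 of 7 members were at least 2-fold higher and 0 lower, against 11.8% and 5.29% of 8409 genes. The median log2 ratio of the members that reached 10 CPM was 0.86 at 1-day, 2.84 at 3-day and 4.06 at 7-day, beside medians over all such genes of -0.06, 0.04 and 0.11. *SERPINB2* and *THBD* never reached 10 CPM, and *PLAU* did not at 1-day. *PLAU* and *PLAUR* were under 10 CPM in Ctrl (6.40 and 8.27 CPM), and *PLAT* was under it in every treated library. Where counted, these genes entered only through the library in which they were higher, so the filter has a part in the counts and medians. The 3 comparisons share the Ctrl library. Since the members were chosen with earlier results of these data known, the shares over all genes are a description and not an independent yardstick.

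*PLAU* (chromosome 10, 73909177 to 73917496, plus strand, GRCh38), encoding urokinase, was at 6.40 CPM in Ctrl (192 UMIs), 8.50 CPM at 1-day (280 UMIs), 45.9 CPM at 3-day (1476 UMIs) and 149 CPM at 7-day (3772 UMIs). No neighbouring pair of these levels had overlapping intervals. The log2 ratio to Ctrl was 0.41 at 1-day (0.14 to 0.68), 2.84 at 3-day (2.63 to 3.07) and 4.54 at 7-day (4.33 to 4.75). The direction at 1-day depended on which cells were counted. In cells called as G1 alone, the *PLAU* level was 13.4 CPM in Ctrl against 8.99 CPM at 1-day, a log2 ratio of -0.58, whereas at 3-day and 7-day it was above Ctrl in G1 cells too, with log2 ratios of 2.22 and 4.11. The gene was one of the most steeply changed between treated libraries, with the 25th highest of 7950 log2 ratios from 1-day to 3-day (2.43) and the 33rd highest of 8048 from 3-day to 7-day (1.69). C10orf55, which overlaps *PLAU* on the opposite strand, had 10 UMIs in Ctrl and 44 UMIs at 7-day.

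*PLAUR* (chromosome 19, 43646095 to 43670547, minus strand), the urokinase receptor, was at 8.27 CPM in Ctrl (248 UMIs), 15.8 CPM at 1-day (521 UMIs), 80.2 CPM at 3-day (2577 UMIs) and 138 CPM at 7-day (3492 UMIs). Each level lay above the one before it with no overlap of intervals. The log2 ratio to Ctrl was 0.94 at 1-day (0.71 to 1.16), 3.28 at 3-day (3.09 to 3.47) and 4.06 at 7-day (3.87 to 4.25). Receptor and ligand thus had the same order of libraries. In G1 cells alone the 1-day log2 ratio was 0.05, and the 7-day log2 ratio was 3.24. A single Ctrl cell held 32 of the 248 *PLAUR* UMIs of Ctrl, and without the top cell of each library the 1-day log2 ratio was 1.09, past 2-fold. With median-of-ratios size factors it was 1.02, so *PLAUR* lay near the 2-fold limit at 1-day.

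*PLAT* (chromosome 8, 42174718 to 42207709, minus strand), the tissue-type activator, went the other way. Its level was 11.5 CPM in Ctrl (346 UMIs), 1.18 CPM at 1-day (39 UMIs), 1.46 CPM at 3-day (47 UMIs) and 5.79 CPM at 7-day (147 UMIs). The 1-day and 3-day intervals overlapped, and both lay below those of 7-day and Ctrl. The level was 9.75-fold lower at 1-day than in Ctrl, a log2 ratio of -3.28 (-3.80 to -2.80) that ranked 16th from the bottom of 8123 genes. From 3-day to 7-day it was 3.96-fold higher (log2 1.99, 1.5 to 2.49). At 7-day it stood at a log2 ratio of -0.99 (-1.28 to -0.71), which is 1.99-fold lower and just inside the 2-fold limit, but in G1 cells alone the log2 ratio was -2.04, and in the earlier and later cells in barcode order it was -1.36 and -0.63. The *PLAT* UMIs per *PLAU* UMI differed from the Ctrl ratio by -3.69, -5.82 and -5.53 on the log2 scale at 1-day, 3-day and 7-day.

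*SERPINE2* (chromosome 2, 223975045 to 224039318, minus strand) encodes protease nexin-1, a serpin that inhibits thrombin, urokinase and plasmin. Its level was 35.5 CPM in Ctrl (1066 UMIs), 677 CPM at 1-day (22316 UMIs), 1117 CPM at 3-day (35912 UMIs) and 500.3 CPM at 7-day (12699 UMIs). It peaked at 3-day, and the 7-day level lay between Ctrl and 1-day with no overlap of intervals. The ratios to Ctrl were 19.1-fold at 1-day (log2 4.25, 4.16 to 4.34), 31.4-fold at 3-day (log2 4.97, 4.89 to 5.06) and 14.1-fold at 7-day (log2 3.82, 3.73 to 3.91). From 3-day to 7-day the level was 2.23-fold lower (log2 -1.16, -1.19 to -1.13), the 34th lowest of 8048 ratios.

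*SERPINB2* (chromosome 18, 63871692 to 63903888, plus strand), encoding plasminogen activator inhibitor-2, was scarce. It had 12 UMIs in Ctrl, 3 UMIs at 1-day, 13 UMIs at 3-day and 56 UMIs at 7-day, or 0.4, 0.0910, 0.404 and 2.21 CPM. The Ctrl, 1-day and 3-day intervals overlapped, and the 7-day interval lay above all 3. The 7-day level was 5.51-fold that of Ctrl (log2 2.46, 1.55 to 3.50), and 1 Ctrl cell carried 7 of the 12 Ctrl UMIs. Without the top cell of each library the 7-day log2 ratio was 3.54.

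*F3* (chromosome 1, 94529173 to 94541759, minus strand), the gene of tissue factor, was at 14.2 CPM in Ctrl (425 UMIs), 205 CPM at 1-day (6749 UMIs), 200.5 CPM at 3-day (6443 UMIs) and 242 CPM at 7-day (6131 UMIs). The 1-day and 3-day intervals overlapped, so the treated libraries formed a plateau from 1-day, with 7-day slightly above it. The ratios to Ctrl were 14.5-fold at 1-day (log2 3.85, 3.71 to 4.0), 14.1-fold at 3-day (log2 3.82, 3.68 to 3.97) and 17.0-fold at 7-day (log2 4.09, 3.95 to 4.24). In G1 cells alone the 3 log2 ratios were 3.31, 3.27 and 3.43.

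*TFPI* (chromosome 2, 187464230 to 187565760, minus strand), the inhibitor of tissue factor, was at 14.1 CPM in Ctrl (422 UMIs), 14.1 CPM at 1-day (466 UMIs), 23.0 CPM at 3-day (739 UMIs) and 42.2 CPM at 7-day (1072 UMIs). The Ctrl and 1-day intervals overlapped, with a log2 ratio of 0.01 (-0.19 to 0.20). The later levels were 1.63-fold that of Ctrl at 3-day (log2 0.71, 0.53 to 0.88) and 3.00-fold at 7-day (log2 1.59, 1.42 to 1.75). Its opposite-strand neighbour CALCRL-AS1 had 4 to 11 UMIs per library.

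*TFPI2* (chromosome 7, 93885396 to 93890753, minus strand), a Kunitz-type inhibitor of plasmin and other serine proteases that is secreted into the matrix, was at 34.5 CPM in Ctrl (1035 UMIs), 59.4 CPM at 1-day (1956 UMIs), 214 CPM at 3-day (6876 UMIs) and 857 CPM at 7-day (21764 UMIs). Each level lay above the one before it with no overlap of intervals. The ratios to Ctrl were 1.72-fold at 1-day (log2 0.78, 0.67 to 0.89), 6.20-fold at 3-day (log2 2.63, 2.54 to 2.73) and 24.8-fold at 7-day (log2 4.64, 4.55 to 4.73). The ratio of 7-day to 3-day was 4.01-fold, the 24th highest of 8048. In G1 cells alone the 1-day log2 ratio was 0.26. GNGT1, which overlaps *TFPI2* on the opposite strand, had 1 to 8 UMIs per library.

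Between consecutive treated time points, 3 of the 6 members that reached 10 CPM were at least 2-fold higher at 3-day than at 1-day (*PLAU*, *PLAUR* and *TFPI2*), against 4.24% of 7950 genes, and 0 were lower, against 2.48%. *PLAU*, at 8.50 CPM at 1-day, entered that comparison only through 3-day. From 3-day to 7-day 2 of 6 were at least 2-fold higher (*PLAU* and *TFPI2*) and 1 lower (*SERPINE2*), against 1.32% and 0.621% of 8048 genes.

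Because the genes differed in timing, the amounts of inhibitor RNA relative to activator RNA shifted over the course. *SERPINE2* UMIs per *PLAU* UMI were above the Ctrl ratio by 3.84 on the log2 scale at 1-day (3.56 to 4.13) and 2.13 at 3-day (1.89 to 2.37), and below it at 7-day (-0.72, -0.96 to -0.49). In G1 cells alone, a comparison added after seeing the data, the 3 changes were 5.01, 2.96 and 0.15, and the interval at 7-day included 0 (-0.21 to 0.50), so the 7-day direction was not kept. *TFPI* UMIs per *F3* UMI were below the Ctrl ratio at all times, with log2 changes of -3.85 at 1-day, -3.11 at 3-day and -2.51 at 7-day. *TFPI2* UMIs per *F3* UMI changed from -3.07 at 1-day to 0.54 at 7-day (0.37 to 0.71). By contrast, *TFPI2* per *PLAU* stayed between -0.21 and 0.37, and its intervals at 3-day and 7-day included 0, while in G1 cells alone the 1-day change was 0.84 (0.43 to 1.23). *PLAUR* per *PLAU* changed by 0.53 at 1-day (0.17 to 0.88), 0.43 at 3-day (0.14 to 0.73) and -0.48 at 7-day (-0.77 to -0.19). In G1 cells alone these changes were 0.63, 0.18 and -0.87, and the 3-day interval included 0 (-0.24 to 0.60). These are ratios of RNA counts, and protein was not measured.

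**Figure D2:**
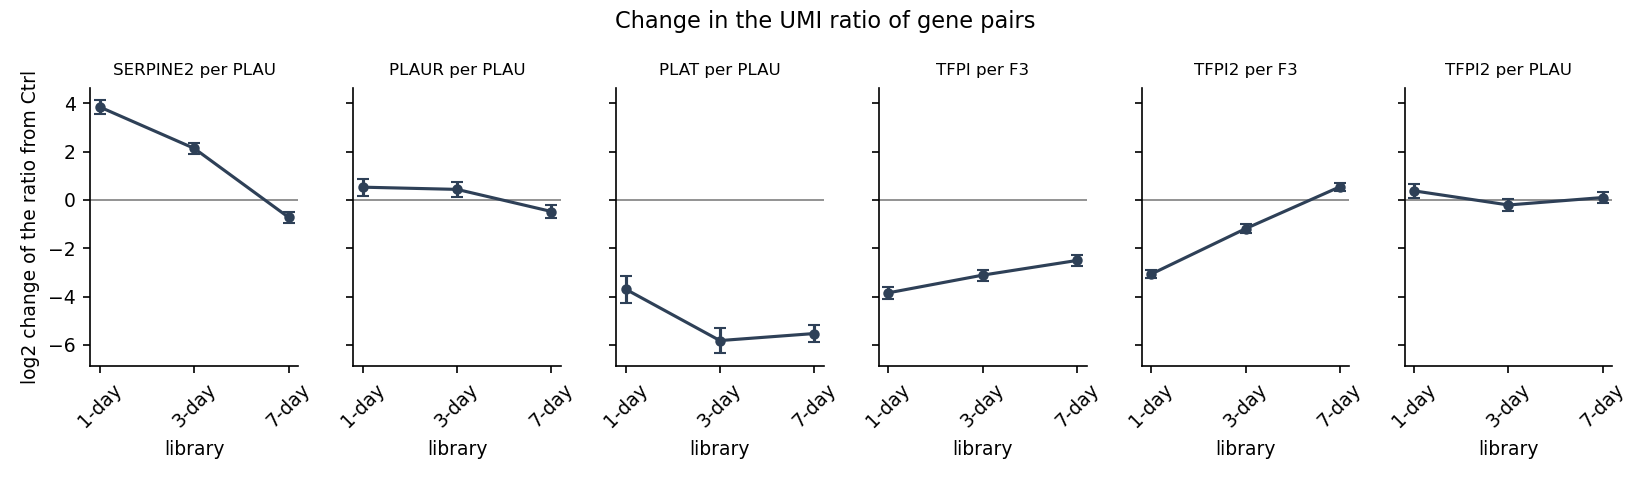
Log2 change from Ctrl of the ratio of UMIs of 6 gene pairs at 1-day, 3-day and 7-day, with exact 95% intervals as bars and a grey line at 0 for the Ctrl ratio. *SERPINE2* per *PLAU* went from 3.84 at 1-day to -0.72 at 7-day, or 0.15 in G1 cells alone, whereas *TFPI2* per *PLAU* stayed between -0.21 and 0.37 in all cells.

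Promoters from RefSeq (GRCh38.p14) were found for 7 of the 9 genes, as 9 windows of 250 bases before a transcription start, and not for *PLAT* and *THBD*. They were searched on both strands for an AP-1 motif (TGANTCA), a SMAD motif (CAGACA) and a TEAD motif (GGAATG). The AP-1 letters were in 4 of the 9 windows, those of *F3*, *PLAUR*, *SERPINB2* and *TFPI2*, against 6.57% of 35116 promoter windows of the same length. The SMAD letters were in 1 window (*SERPINB2*), against 13.6%, where they did not overlap the AP-1 match, and the TEAD letters were in 0, against 11.9%. A match describes letters and is not a site of binding. The windows of 3 of these genes are printed 5′ to 3′ on the gene's strand to show where the matches lie, with AP-1 and SMAD matches in capitals: *F3* at chr1:94541760-94542009 (minus strand), *SERPINB2* at chr18:63887455-63887704 (plus strand) and *TFPI2* at chr7:93890754-93891003 (minus strand). Of *PLAUR* the 30 bases around its match are printed, at chr19:43670338-43670367 (minus strand), since the window lies in exons of other *PLAUR* transcripts.
F3: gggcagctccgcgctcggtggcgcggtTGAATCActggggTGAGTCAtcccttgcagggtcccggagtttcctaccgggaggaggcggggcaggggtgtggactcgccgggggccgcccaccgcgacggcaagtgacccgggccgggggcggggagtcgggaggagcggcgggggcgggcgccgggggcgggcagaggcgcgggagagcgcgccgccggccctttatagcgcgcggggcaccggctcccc
SERPINB2: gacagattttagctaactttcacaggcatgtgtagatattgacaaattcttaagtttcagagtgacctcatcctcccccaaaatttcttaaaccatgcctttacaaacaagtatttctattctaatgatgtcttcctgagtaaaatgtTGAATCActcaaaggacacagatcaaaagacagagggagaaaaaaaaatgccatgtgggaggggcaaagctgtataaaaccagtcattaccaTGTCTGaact
TFPI2: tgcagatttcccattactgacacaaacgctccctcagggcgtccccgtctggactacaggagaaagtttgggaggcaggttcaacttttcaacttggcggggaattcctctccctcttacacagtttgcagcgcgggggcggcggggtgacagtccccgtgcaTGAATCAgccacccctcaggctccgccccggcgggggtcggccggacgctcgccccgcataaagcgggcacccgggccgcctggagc
PLAUR: atcacaactccaTGAGTCAgggccgagcca
The AP-1 matches began 223 and 210 bases before the start in *F3*, 186 in *PLAUR*, 102 in *SERPINB2* and 87 in *TFPI2*, and the SMAD match began 10 bases before the start in *SERPINB2*. In *SERPINB2* the SMAD letters are on the strand opposite to the one printed. The *F3* and *TFPI2* windows overlap exons of neighbouring genes by 73 and 91 bases, and the *SERPINB2* window overlaps no annotated exon. Genes with and without a match were both among those higher at 7-day: *PLAU*, *SERPINE2* and *TFPI* had none of the 3 motifs in their windows.

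The share of cells that carried a UMI was compared as well. To compare libraries of unequal depth, each cell was thinned at random to 18000 UMIs, and 844 cells of Ctrl, 900 of 1-day, 677 of 3-day and 549 of 7-day were deep enough for this. *SERPINE2* was found in 37.2% of Ctrl cells (33.9 to 40.6), 97.4% of 1-day cells, 99.9% of 3-day cells and 98.4% of 7-day cells. *F3* went from 15.5% in Ctrl (13.1 to 18.1) to 88.2% at 1-day (85.9 to 90.3), 91.9% at 3-day and 93.3% at 7-day. For both genes most cells thus had a UMI from the first treated time point.

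For *PLAU*, *PLAUR* and *TFPI2* the share of cells with a UMI was larger at each later time, as their summed levels were. Such a share follows the level where counts per cell are low, and more cells with the RNA cannot be told apart from more RNA per cell. *PLAU* was found in 6.16% of Ctrl cells (4.64 to 8.0), 9.22% of 1-day cells (7.41 to 11.3), 30.6% of 3-day cells (27.1 to 34.2) and 68.5% of 7-day cells (64.4 to 72.4). *PLAUR* was in 9.83%, 20.8%, 65.3% and 85.2% of cells in the same order, and *TFPI2* in 27.6%, 42.4%, 74.9% and 98.0%. *TFPI* was found in 19.8% of Ctrl and 19.7% of 1-day cells, then in 31.0% and 50.1%. *PLAT* was found in 14.5% of Ctrl cells (12.2 to 17.0), 2.00% at 1-day, 2.66% at 3-day and 8.01% at 7-day (5.88 to 10.6), and *SERPINB2* in 0.474%, 0.111%, 0.886% and 3.64%. A UMI of *THBD* was found in 0 of 549 thinned cells at 7-day, which allows a share of cells with a UMI of up to 0.546% (3 counts), and in 0 of the 844 Ctrl cells, which allows up to 0.355%. Cells that express the gene at a low level could lack a UMI at this depth.

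**Figure D3:**
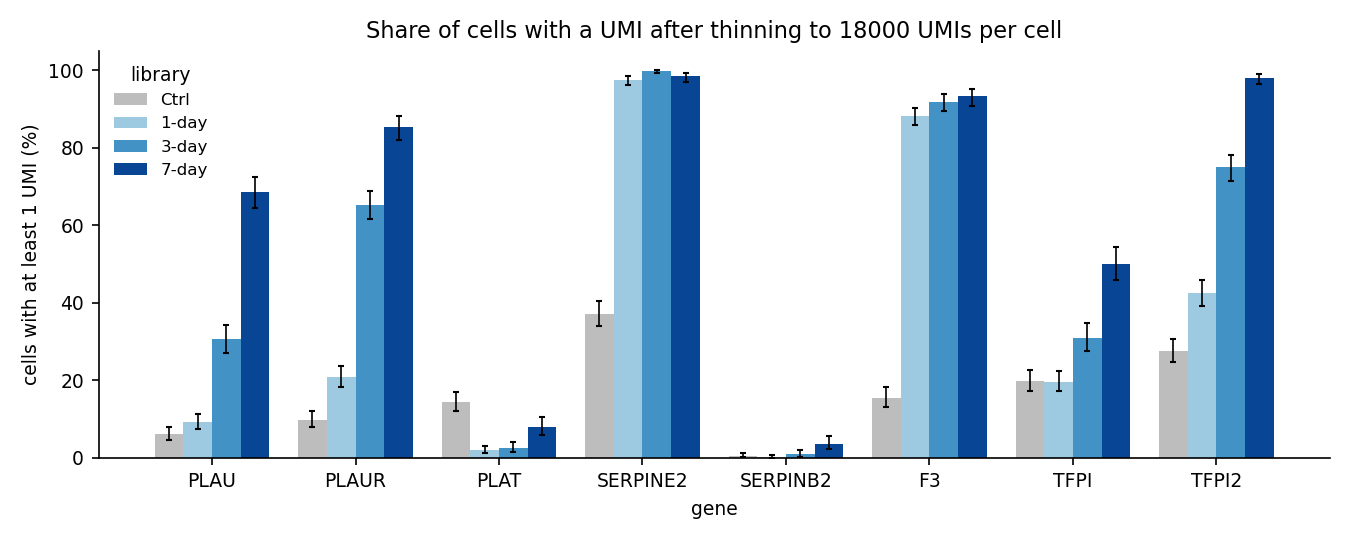
Percent of cells with at least 1 UMI of each gene in the 4 libraries after thinning to 18000 UMIs per cell, with exact binomial 95% intervals as bars. *SERPINE2* and *F3* are above 88% in all treated libraries, while *PLAU*, *PLAUR* and *TFPI2* climb step by step, to 68.5%, 85.2% and 98.0% at 7-day.

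Without thinning the shares of these 4 genes were higher, with *PLAU* in 8.68%, 16.8%, 51.5% and 83.0% of cells, *PLAUR* in 16.6%, 32.3%, 84.8% and 96.7%, *PLAT* in 20.5%, 3.74%, 6.38% and 17.2%, and *TFPI* in 30.7%, 32.9%, 55.0% and 76.8%. A thinned Ctrl cell had UMIs of a median of 1 of the 9 genes, a 1-day cell of 3, a 3-day cell of 4 and a 7-day cell of 5. The share of cells with UMIs of 5 or more of the genes was 1.78% in Ctrl and 3.00%, 28.7% and 75.6% in the treated libraries in time order, and 27.8% of Ctrl cells had none.

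Within a library the genes also differed in how evenly they were spread. In thinned 7-day cells *PLAU* had a median of 1 UMI per cell and a highest value of 45, and the 55 cells with most UMIs, of 549, held 49.8% of them. Its variance was 8.24 times its mean, where the 200 genes of nearest mean had a median of 1.32 and a 95th percentile of 2.32. *TFPI2* had a median of 12 and a highest value of 104 at 7-day, with a variance 15.7 times its mean (12.2 at the 95th percentile of like genes) and 11.2 times at 3-day (2.69). *F3* was more even, with medians of 3, 3 and 4 UMIs at 1-day, 3-day and 7-day and a variance at 7-day of 2.74 times its mean, near the 95th percentile of 2.76. *TFPI* lay within the range of like genes at 7-day, at 1.25 against a 95th percentile of 1.57. *SERPINE2* had medians of 9, 18 and 7 UMIs in the 3 treated libraries, and its variance was 9.44 times its mean at 1-day (6.24 for the 95th percentile) and 8.36 at 3-day (10.4).

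For some genes a few cells held much of the Ctrl level. The 10 cells with most UMIs held 42.2% of the Ctrl *PLAU* UMIs, 31.0% of *PLAUR*, 27.1% of *TFPI2*, 24.9% of *F3*, 19.4% of *PLAT*, 11.4% of *SERPINE2* and 10.7% of *TFPI*. One Ctrl cell with 21785 UMIs in all held 99 of the 1035 *TFPI2* and 32 of the 248 *PLAUR* UMIs and 0 of *SERPINE2* and *F3*. Another held 25 of the 425 *F3* UMIs together with the 7 *SERPINB2* UMIs. Leaving out the 10 top cells of each gene in each library raised the 1-day log2 ratios of *PLAU* from 0.41 to 0.85, of *PLAUR* from 0.94 to 1.24 and of *TFPI2* from 0.78 to 1.02, so that *PLAUR* and *TFPI2* then also passed 2-fold at 1-day. That alternative was chosen after seeing the data. For these 3 genes the top cells held a larger share of the UMIs in Ctrl than in any treated library. *PLAT* was under 10 CPM in both libraries under it and was then not counted, at a 1-day log2 ratio of -3.62.

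Co-expression of members across the cells of a library was mostly weak. It was measured as Pearson r of log-normalized values over thinned cells, which share a library and its depth, and it is given as a description. Among pairs whose genes were both found in at least 10% of cells, the median r was 0.09 in Ctrl (10 pairs), 0.06 at 1-day (10 pairs), 0.03 at 3-day (15 pairs) and 0.04 at 7-day (15 pairs). The number of pairs with r of at least 0.1 was 4, 2, 4 and 3, and the lowest r was -0.13, for *TFPI* with *TFPI2* at 3-day.

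*PLAU* and *PLAUR* had r of 0.23 across Ctrl cells, 0.09 across 1-day cells, 0.18 across 3-day cells and 0.21 across 7-day cells, beside a 99th percentile over all genes for *PLAU* of 0.15 at 3-day and 0.23 at 7-day. Without the 10 cells with most UMIs of either gene these were 0.16, 0.01, 0.09 and 0.17. *PLAU* was found in only 6.16% of Ctrl and 9.22% of 1-day cells, so its pairs in these libraries are outside the 10% limit. At 7-day 88.6% of cells with *PLAU* had *PLAUR* as well, against 78.0% of cells without *PLAU*. *PLAU* and its inhibitor *SERPINE2* had r of 0.04 across Ctrl cells, 0.11 across 1-day cells, 0.11 across 3-day cells and 0.28 across 7-day cells, the highest of the 15 pairs at 7-day and 0.25 without the top cells. Cells rich in the activator RNA at 7-day therefore tended, weakly, to be rich in this inhibitor RNA too. This r is over cells of all phases, and both genes were higher in G1 than in G2M cells at 7-day (log2 1.23 and 0.73).

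The pair *PLAUR* and *TFPI2* had r of 0.30 across Ctrl cells, 0.17 across 1-day cells, 0.22 across 3-day cells and 0.19 across 7-day cells. In Ctrl *PLAUR* was found in 9.83% of cells, under the 10% limit. There the value rested on a few cells, at 0.16 without the top cell of either gene and 0.04 without the 10 top cells. In treated libraries it was 0.11, 0.18 and 0.14 without the 10 top cells. *SERPINE2* and *F3*, the early genes, had r of 0.13 across Ctrl cells, 0.24 across 1-day cells, 0.01 across 3-day cells and 0.09 across 7-day cells. *F3* and *TFPI2* had r of 0.12 in Ctrl (0.03 without the 10 top cells of either gene) and -0.09, -0.06 and -0.09 in treated libraries. *PLAU* and *TFPI2*, whose ratios to Ctrl were nearly parallel, had r of 0.14 across Ctrl cells, where *PLAU* was under the 10% limit, as at 1-day. Across 1-day, 3-day and 7-day cells r was 0.05, 0.06 and 0.04. A like course over the libraries thus stood beside values near 0 within the treated ones.

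**Figure D4:**
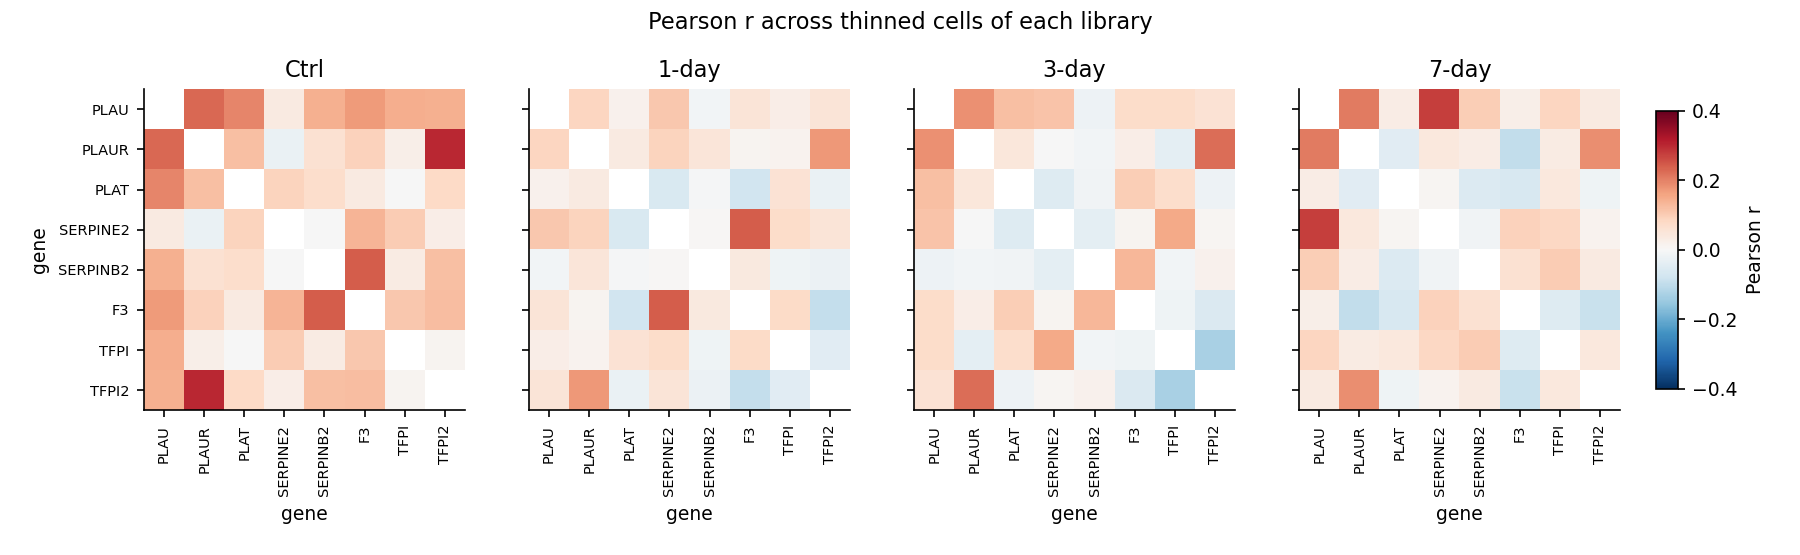
Pearson r across thinned cells for each pair of 8 genes in the 4 libraries, coloured from -0.4 (blue) to 0.4 (red), with genes on both axes. The strongest cells are *PLAUR* with *TFPI2* in Ctrl (0.30), which rests on few cells, *SERPINE2* with *F3* at 1-day (0.24) and *PLAU* with *SERPINE2* at 7-day (0.28).

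The cell cycle phase called for each cell divided some of the genes. The *PLAU* level at 7-day was 232 CPM in G1 cells, 92.2 CPM in S cells and 98.8 CPM in G2M cells, with a log2 ratio of G1 to G2M of 1.23 (1.12 to 1.34). The log2 ratio of G1 to G2M was 1.82 in Ctrl (1.33 to 2.32), 0.39 at 1-day (-0.09 to 0.91) and 0.78 at 3-day (0.62 to 0.95). At 7-day *PLAU* had r of -0.23 and *SERPINE2* r of -0.25 with *TOP2A*, a topoisomerase made in dividing cells. *SERPINE2* at 7-day was at 638 CPM in G1, 476 CPM in S and 384 CPM in G2M cells, with a log2 ratio of G1 to G2M of 0.73 (0.67 to 0.79), whereas in Ctrl the phases did not differ beyond counting error (-0.18, -0.40 to 0.04).

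*F3* went the other way over time, with a log2 ratio of G1 to G2M of 0.97 in Ctrl (0.65 to 1.29), 0.70 at 1-day (0.59 to 0.80), 0.17 at 3-day (0.09 to 0.25) and -0.03 at 7-day (-0.11 to 0.05). *PLAUR* in Ctrl was at 16.1 CPM in G1, 6.47 CPM in S and 5.21 CPM in G2M cells, and at 7-day at 152, 128 and 129 CPM. *TFPI2* was highest in S cells in each treated library, most clearly at 1-day, at 123 CPM in the 79 S cells, 52.3 CPM in G1 and 59.4 CPM in G2M cells. Its log2 ratio of G1 to S was -1.23 at 1-day (-1.41 to -1.05), -0.10 at 3-day (-0.20 to -0.01) and -0.21 at 7-day (-0.26 to -0.16), and 0.33 in Ctrl (0.10 to 0.56). *PLAT* at 7-day was lower in G1 than in S cells (log2 -0.96, -1.65 to -0.26) and in Ctrl higher in G1 than in G2M cells (0.91, 0.52 to 1.29).

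**Figure D5:**
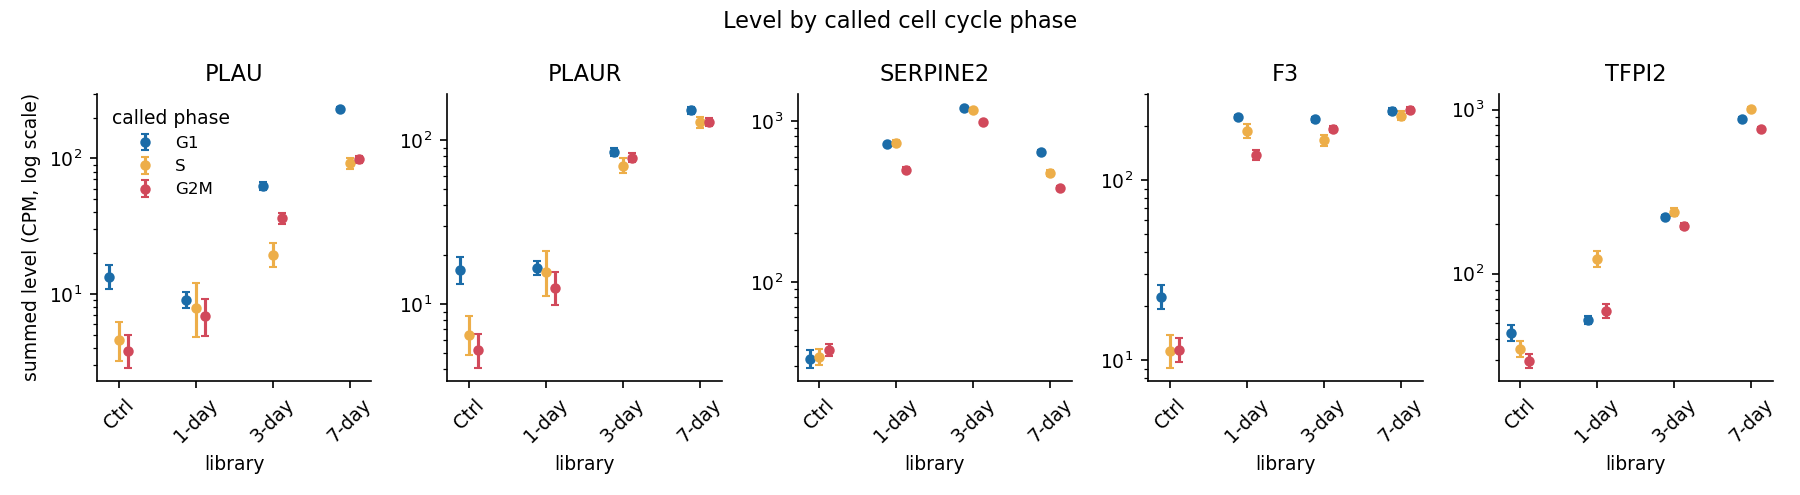
Level in CPM, on a log scale, of 5 genes in cells called as G1, S and G2M in each library, with exact Poisson 95% intervals as bars. *PLAU* was highest in G1 cells at 7-day (232 CPM), and *TFPI2* at 1-day was highest in S cells (123 CPM).

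The genes with the nearest course over the libraries were looked for among genes of at least 10 CPM in every library, by the root mean square distance of the 3 log2 ratios to Ctrl. There were 6556 genes at that level, and those not reported here were passed over, so a gene called nearest is the nearest of the rest. *PLAU*, *PLAUR* and *PLAT* were under 10 CPM in a library and could not be named as near to another gene. For *PLAU* the nearest was *TFPI2* (0.25), and *TFPI2* was the nearest to *PLAUR* as well (0.51). *DRAM1*, a regulator of autophagy, was the nearest to *TFPI2* (0.86) and the next to *PLAU* (0.91) and *PLAUR* (0.79), and *FST*, which encodes the activin-binding protein follistatin, was the next to *TFPI2* (0.95). *F3* was nearest to *CYR61*, a matricellular gene (0.23), and *PMEPA1* (0.51). *SERPINE2* was nearest to *PMEPA1*, a TGF-β target that restrains SMAD signalling (0.37), and the matrix gene *TGFBI* (0.56). *TFPI* was nearest to *TNIP1* and *CFLAR* (both 0.11), and *PLAT* to *RAB3B* (0.57) and *MAL2* (0.86), which were also lower in treated libraries.

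Across cells, 4 members were found often enough in every library to be compared with 7972 genes by their mean r over the 4 libraries. *TFPI2* went with *OCIAD2* (0.33), *SRI* (0.31) and *FST* (0.31). *F3* went with *CYR61* (0.23), the keratin *KRT6A* (0.23) and *THBS1* (0.23). *CYR61* was thus among the genes named for *F3* both in time and between cells, as was *FST* for *TFPI2*. *SERPINE2* went with the metallothionein *MT2A* (0.32), the tetraspanin *CD63* (0.26) and the integrin chain *ITGB1* (0.24). For *TFPI* the highest values were low (*TM4SF1* 0.15, *EEF1A1* 0.15, *TXNRD1* 0.15). *PLAU* at 7-day had r of 0.24 with *CXCL8* and 0.27 with *CCL5*, chemokine genes. In Ctrl *TFPI2* had r of -0.03 with *CCL5* and 0.23 with *CXCL8*. At 1-day, 3-day and 7-day *TFPI2* had r of 0.18, 0.24 and 0.20 with *CCL5*, but 0.07, 0.02 and -0.05 with *CXCL8*. *PLAUR* had r of 0.24, 0.11 and 0.21 with *CCL5* in the same order, and 0.11, 0.11 and 0.07 with *CXCL8*. *SERPINE2* at 7-day had r of 0.18 with *CXCL8* and 0.15 with *CCL5*. *TFPI2* had r of -0.20 with *COL1A1* at 1-day, -0.16 at 3-day and -0.08 at 7-day. No limit on detection was set for *CXCL8*, *CCL5* and *COL1A1*, and no values without top cells were taken, so these r may rest on few cells.

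The partners of these genes were read from 5 lists, which were also chosen with earlier results of these data known. Of 6 genes for plasminogen and its cell-surface receptors, 5 reached 10 CPM in each comparison, and 2 were at least 2-fold higher and 0 lower at each time. The shares over all genes, against which the counts of all 5 lists are to be read, were 9.34%, 10.1% and 11.8% higher and 9.31%, 5.92% and 5.29% lower at 1-day, 3-day and 7-day. The 2 higher genes of this list were *ANXA2* and *S100A10*, which form a plasminogen-binding complex, at 1-day and 3-day, and *ANXA2* and *CKAP4* at 7-day. *ANXA2* was at 484 CPM in Ctrl and 1144, 1023 and 975 CPM in treated libraries, and *CKAP4*, from Ctrl to 7-day in time order, at 16.6, 9.89, 24.0 and 39.7 CPM. At 7-day *ANXA2* lay at the 2-fold limit, with a log2 ratio of 1.01 (0.98 to 1.04). *PLG*, plasminogen itself, had 1 UMI at 1-day and 0 in the other libraries.

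Of 8 receptors that clear protease and inhibitor complexes, 5 reached 10 CPM at 1-day and 3-day and 6 at 7-day. At 1-day 1 was higher (*SORL1*), and at 3-day and 7-day 1 was lower. This was *LRP1*, which takes up urokinase and serpin complexes, at 42.1, 35.7, 16.3 and 17.1 CPM from Ctrl to 7-day in time order (log2 -1.30 at 7-day, -1.46 to -1.14). The receptor of urokinase and the receptor that clears its complexes thus had opposite directions.

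Of 19 other serpins 6 reached 10 CPM, with 2 higher at each time and 1 lower at 1-day and 3-day (*SERPINB1*, an inhibitor of neutrophil proteases). *SERPINA1*, which encodes α-1 antitrypsin, was at 3.27 CPM in Ctrl (98 UMIs) and then at 76.2, 322 and 399 CPM in the treated libraries in time order, a 7-day log2 ratio of 6.93 (6.65 to 7.24). *SERPINB8* had 4.30 CPM in Ctrl against 15.1 CPM at 7-day (log2 1.81, 1.52 to 2.11). Of 9 membrane-bound serine proteases and Kunitz-type inhibitors 7 reached 10 CPM, with 0 past 2-fold at 1-day and 1 higher (*APP*) and 1 lower (*TMPRSS4*) at 3-day and 7-day. *TMPRSS4*, a membrane-bound serine protease, was at 62.0, 90.8, 25.1 and 18.0 CPM from Ctrl to 7-day in time order.

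Of 23 coagulation factors, protease-activated receptors and genes of the protein C branch, 5 reached 10 CPM at 1-day and 4 at 3-day and 7-day. At 1-day 0 were higher and 2 lower (*F12* and *F5*), and at 3-day and 7-day 1 was higher and 1 lower. *F5*, coagulation factor V, was at 19.9, 9.65, 2.36 and 2.88 CPM from Ctrl to 7-day in time order (log2 -2.79 at 7-day, -3.16 to -2.44). *PROCR*, the protein C receptor, was at 21.2, 33.8, 58.3 and 48.7 CPM in the same order (log2 1.20 at 7-day, 1.06 to 1.34). The median log2 ratio of the 5 lists at 7-day lay between -0.02 and 0.74, beside 0.11 over all genes of at least 10 CPM.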

How the data were processed

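Single-cell suspensions of OVCA420 cells were processed by the authors with the 10x Genomics 3′ kit v3 and Cell Ranger 2.0.1 on GRCh38 at its default settings, which count reads in the sense direction of a gene, and the deposited values are raw counts of UMIs per gene and cell. The annotation used for counting is not given in the sources used here. The count tables read here cover the first 3170 barcodes of 10710, so sums are not full library depths, and in each library the last cell, which was incomplete, was left out. Cells with over 200 genes and at most 20% mitochondrial UMIs were retained (3144), and 32 cells marked by Scrublet in scanpy 1.11.5 (1.02%) were kept in the main values. Phases were called with scanpy from lists of 42 S and 54 G2M genes. Groups are the labelled time points.

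Ratios have exact conditional binomial intervals, levels exact Poisson and shares exact binomial (Clopper-Pearson) intervals. A gene was set against the 2-fold limit where either library reached 10 CPM. A gene under 10 CPM in the other library thus entered only through the library where it was higher. For co-expression, counts were scaled to 10000 per cell and transformed by the natural log after adding 1. Named genes are the 9 members, the 2 highest and 2 lowest 7-day ratios past 2-fold of each list (at least 10 CPM), the 3 genes nearest across cells and the 2 nearest in time. *S100A10*, *SORL1*, *SERPINB1*, *F12* and *PLG* were named after their values were seen, to say which genes a count holds or to give plasminogen itself. *CXCL8*, *CCL5*, *COL1A1* and *TOP2A* were compared with the members outside this rule and with no limit on their own detection. The leukocyte markers were also named outside it, after their values were seen. The members and lists were chosen with earlier results of these data known. Some genes, including genes that the rule would name, are not reported here. Positions are from GENCODE 44 (GRCh38), matched by Ensembl identifier. On counts simulated for 1-day against Ctrl (7647 genes, 200 changed by log2 2), 199 were called in the right direction and 0 others. The simulated counts had counting error only, with no spread between cells or cultures, and changes well past the 2-fold limit. They check the calculation and do not show how reliable the calls on the real libraries are. Alternatives were other scalings, cell sets, limits and thinning.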

Additional observations from a re-analysis of the deposited data

Results flagged for a closer look

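The genes *SERPINB2*, *CKAP4* and *TMPRSS4* were on opposite sides of Ctrl at different time points, with counting intervals that exclude 0 on both sides. That these directions differ was not tested, as there is 1 library for each time. Against Ctrl, *SERPINB2* had a log2 ratio of -2.14 at 1-day (-4.60 to -0.25), from 3 UMIs against 12, and of 2.46 at 7-day (56 UMIs). The 1-day value rests on few molecules and was -0.11 in G1 cells alone. *CKAP4*, a cell-surface receptor reported to bind tissue-type plasminogen activator, had log2 ratios of -0.75 at 1-day, 0.53 at 3-day and 1.26 at 7-day. *TMPRSS4* had log2 ratios of 0.55 at 1-day, -1.30 at 3-day and -1.78 at 7-day.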

How the results depend on the processing

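No paired analysis was possible because each time point has 1 library. Where the counting interval excluded 0, directions turned only in G1 cells alone: *PLAU* was lower at 1-day than in Ctrl (log2 -0.58), where all cells gave 0.41, and *SERPINE2* per *PLAU* at 7-day changed by 0.15 where all cells gave -0.72. Of the other ratios of 2 members, 15 in G1 cells lay outside the interval of all cells and 5 lay within it. The log2 ratios of *TFPI* at 1-day (-0.20 to 0.21) and *SERPINB2* at 3-day (-0.40 to 2.17), whose intervals included 0, had either sign. The log2 ratios of *SERPINE2* and *F3* stayed above 3.27 at all times and under every alternative, and those of *PLAU*, *PLAUR* and *TFPI2* at 7-day stayed between 3.24 and 5.08. The count of members at least 2-fold higher at 1-day was 3 instead of 2 with median-of-ratios size factors and in the earlier cells in barcode order. There *PLAUR* had log2 ratios of 1.02 and 1.08. The count was 4 with a 1.5-fold limit and also without the 10 cells with most UMIs of each gene. Under the latter, 0 instead of 1 were lower at 1-day and at 3-day, since *PLAT* then missed 10 CPM. At 7-day *PLAT* lay at the limit, and 1 member instead of 0 was lower with median-of-ratios size factors, with the mean over cells of CPM, after thinning, without doublets, in G1 cells, in the earlier cells in barcode order and with a 1.5-fold limit. Over all lists, 5, 6 and 6 genes were at least 2-fold higher and 3, 4 and 3 lower at 1-day, 3-day and 7-day. With no filter on the level these were 13, 12 and 12 higher and 12, 14 and 13 lower, and with a filter of 50 CPM 3 were higher at 7-day and 0, 1 and 1 lower. Shares over all genes were taken only at 10 CPM and the 2-fold limit. Counts of list genes or members under other filters or limits therefore have no share beside them and show only how the counts depend on the setting. Median-of-ratios size factors moved all log2 ratios by at most 0.08, and the mean over cells of CPM moved *SERPINB2* at 7-day from 2.46 to 3.00 and *PLAU* at 1-day from 0.41 to 0.26. The earlier and the later cells in barcode order gave *PLAU* log2 ratios at 1-day of 0.86 and 0.00. *SERPINB2*, with at most 56 UMIs, gave 7-day log2 ratios from 1.44 to 4.31.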
